A study of Mus musculus with 8 samples.

Results

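The 10 genes described here belong to the mTOR pathway: Ddit4, Ddit4l, Mtor, Rptor, Rictor, Rheb, Tsc1, Tsc2, Sesn1 and Eif4ebp1. They were chosen by name around Ddit4l, which had been selected on its R6/2 to wild-type difference in these same arrays, so the differences of the 10 genes are given as a description, without a p-value. All 27 probe sets that the platform annotation assigns to them were kept, of 45037 probe sets and 18193 named genes in all. A probe set is a group of short probes that together report 1 transcript. Values are log2 expression values, so a difference of 1 is a doubling, and levels of different probe sets are not comparable with each other.

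Striatal RNA was profiled on 1 array per mouse in 4 wild-type mice (numbers 42, 48, 54 and 63) and 4 R6/2 mice (numbers 64, 65, 70 and 78). R6/2 mice carry a transgene with the first exon of human huntingtin and an expanded CAG repeat, and model Huntington's disease with fast onset; the wild-type mice lack the transgene. All 8 were labelled as females of 12 weeks (85 days) on a mixed background of C57Bl/6 and CBA, and the design text names 1 further wild-type mouse that was not analysed here. In whole striatal tissue, fewer cells of a type and less RNA per cell cannot be told apart.

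The mTOR kinase joins signals on growth factors, amino acids, energy and stress. It works in mTORC1, with the scaffold raptor, which drives protein synthesis and restrains autophagy, and in mTORC2, with rictor, which phosphorylates Akt. The small GTPase Rheb switches mTORC1 on, and the TSC1-TSC2 complex switches Rheb off. DDIT4 (also called REDD1) and its paralog DDIT4L (REDD2) act through that complex to lower mTORC1 activity under stress, as the sestrins do through amino acid sensing and AMPK. The mTOR complexes and the TSC1-TSC2 complex are controlled largely by phosphorylation and location, which RNA levels do not show.

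Ddit4l was far lower in R6/2 striatum on all 3 of its probe sets, while the groups overlapped for its paralog Ddit4. Among the other 24 probe sets of the 9 remaining genes, 1 was called, beside 10.1% of all probe sets. It was a probe set of Rictor, 1.32-fold higher, while another Rictor probe set differed by -0.25 on the log2 scale. That call was lost without R6/2 mouse 70 and with a cortical marker score, described further on, in the model. The central kinase, raptor, Rheb and both TSC genes differed by at most 1.20-fold on their brightest probe sets. With that score in the model, however, the Rheb difference was 0.39 on the log2 scale in place of 0.21. Among the 10 genes, 1 large difference, in an inhibitor of the pathway, thus stood beside small ones.

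The promoter windows of the paralogs are shown because their transcripts differed so unlike each other. They come from RefSeq (build GRCm38.p6) and run 5′ to 3′ from 250 bases before the annotated start to 50 bases after it, Ddit4l at chr3:137623422-137623721 on the plus strand and Ddit4 at chr10:59951721-59952020 on the minus strand. Capitals mark every match, on either strand, to the letters searched: the cAMP response element TGACGTCA and its core TGACG, the hypoxia element core ACGTG, the E-box CACGTG (which contains ACGTG), the GC box GGGCGG and the TATA box TATAAA.
Ddit4l: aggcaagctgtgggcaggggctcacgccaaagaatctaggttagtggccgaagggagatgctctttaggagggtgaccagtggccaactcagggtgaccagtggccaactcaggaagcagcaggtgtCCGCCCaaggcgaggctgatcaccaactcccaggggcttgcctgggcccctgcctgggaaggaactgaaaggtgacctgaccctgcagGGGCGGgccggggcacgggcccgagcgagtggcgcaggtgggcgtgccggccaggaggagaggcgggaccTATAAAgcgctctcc
Ddit4: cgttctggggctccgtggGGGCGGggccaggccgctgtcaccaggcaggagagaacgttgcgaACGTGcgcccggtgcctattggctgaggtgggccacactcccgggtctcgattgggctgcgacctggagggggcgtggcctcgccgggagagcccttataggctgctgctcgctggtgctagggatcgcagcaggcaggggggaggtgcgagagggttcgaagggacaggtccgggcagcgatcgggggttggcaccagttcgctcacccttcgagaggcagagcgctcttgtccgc

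The Ddit4l window held 2 GC boxes, at positions -123 and -35 from the annotated start, and a TATA box at position 36 of the transcript. The Ddit4 window held 1 GC box at position -232 and 1 hypoxia element core at -187. Neither window held a cAMP response element, its core or an E-box by these letters. Of 32817 distinct promoter windows of this length, 35.6% held a GC box, 13.6% the TATA box, 19.6% the hypoxia core, 20.8% the cAMP core, 7.15% the E-box and 1.79% the full cAMP response element. Guanine and cytosine made up 65.7% of the Ddit4l window and 69.0% of the Ddit4 window, against a median of 52.7% over all windows. The Ddit4l window had 14 CpG pairs and the Ddit4 window 26, against a median of 7.

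The brightest Ddit4l probe set, 1444139_at, read 8.57, 8.76, 8.61 and 8.16 in wild-type mice 42, 48, 54 and 63, and 6.21, 6.29, 6.34 and 6.58 in R6/2 mice 64, 65, 70 and 78. The wild-type mean was 8.53 ± 0.26 and the R6/2 mean 6.36 ± 0.16 (SD, n = 4 each). The difference of -2.17 ± 0.13 (SE) on the log2 scale is 4.50-fold. The lowest wild-type mouse still lay 1.57 above the highest R6/2 mouse. The gap between the groups was wider than the whole range within either group, 0.61 in wild-type and 0.37 in R6/2 mice.

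The second probe set, 1439332_at, read 8.06, 7.83, 7.89 and 7.50 in the wild-type mice and 5.98, 5.42, 5.58 and 6.23 in the R6/2 mice, in the same order of mouse numbers. Its means were 7.82 ± 0.24 and 5.80 ± 0.37, a difference of -2.02 ± 0.18 or 4.05-fold. R6/2 mice varied most on this probe set, over 0.82 log2 units. The dimmest, 1451751_at, read 6.66, 6.37, 6.60 and 6.23 in wild-type and 4.63, 4.94, 4.75 and 5.17 in R6/2 mice, with a difference of -1.60 ± 0.13 or 3.03-fold. The R6/2 values of this probe set were still above 3.67, the highest of 9 probe sets of the Y-linked genes Ddx3y, Eif2s3y, Kdm5d and Uty, which female mice lack. All 3 therefore stood above that estimate of background in every mouse. The R6/2 mean of 1451751_at, 4.87, was nevertheless below the median probe set of the array, at 5.11, and RMA compresses differences at such levels.

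The 3 probe sets put the mice in a partly shared order. Wild-type mouse 63 was the lowest of its group and R6/2 mouse 78 the highest of its group on each of them, so these mice set the gap between groups every time. R6/2 mouse 64 was the lowest of its group on 2 probe sets and the second highest on 1439332_at. With each group centred on its mean, the probe sets correlated pairwise at 0.53 to 0.65 over the 8 arrays, a description over few points that share an array. The differences ranked 10th, 14th and 32nd among all falls on the array.

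**Figure D1:**
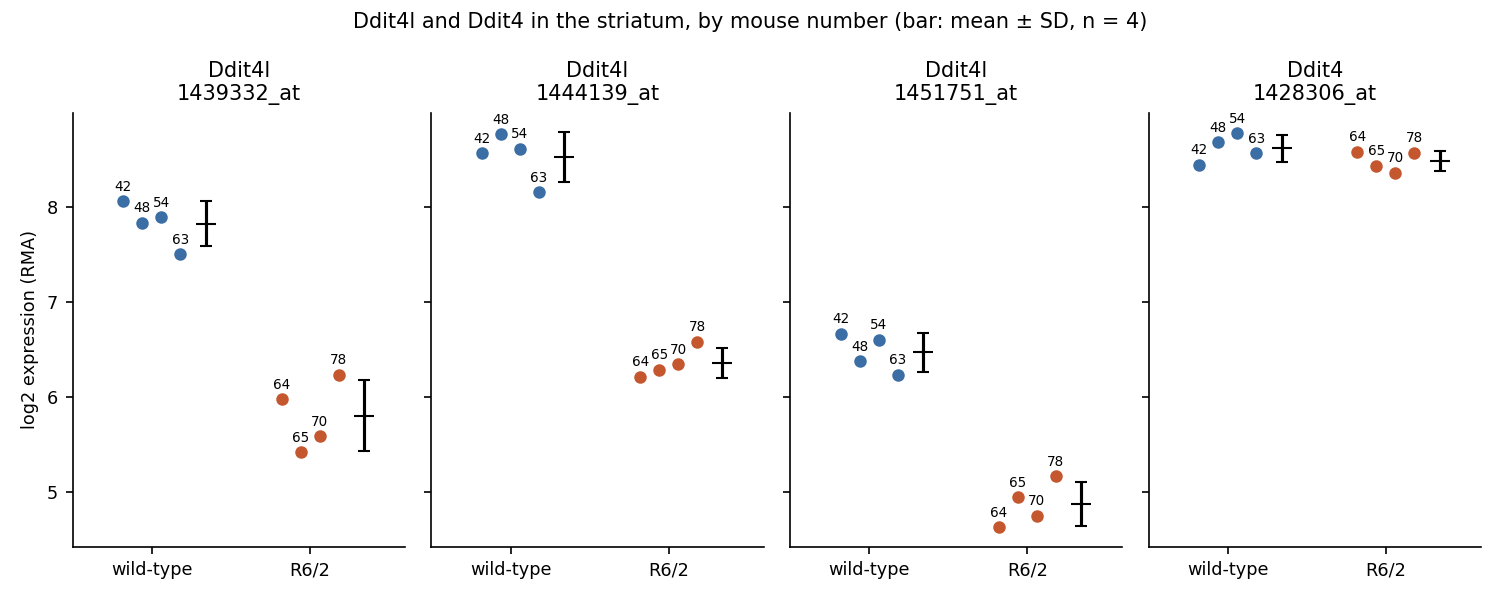
Log2 expression of the 3 Ddit4l probe sets and of the Ddit4 probe set in each mouse; points carry mouse numbers and bars give the mean ± SD of 4 mice. R6/2 mice lie between 4.63 and 6.58 on the Ddit4l probe sets, below all wild-type mice on each, whereas the groups overlap for Ddit4.

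Ddit4, the paralog that hypoxia, energy stress and glucocorticoids induce in many tissues, read 8.44, 8.68, 8.77 and 8.56 in wild-type mice 42, 48, 54 and 63 on its 1 probe set, 1428306_at. In R6/2 mice 64, 65, 70 and 78 it read 8.58, 8.44, 8.36 and 8.57. The groups overlapped, and the difference was -0.13 ± 0.091. Sesn1, a sestrin that p53 induces, had 4 probe sets, with differences of -0.18 ± 0.096 (1433711_s_at), -0.20 ± 0.16 (1438931_s_at), -0.15 ± 0.081 (1444376_at) and -0.0087 ± 0.10 (1454699_at). The groups overlapped on each. On the brightest, wild-type mice read 9.14, 9.02, 9.13 and 8.77 and R6/2 mice 8.90, 8.71, 8.92 and 8.80, so that wild-type mouse 63 again lay apart from its group and within the R6/2 range. Of the inhibitors among the 10 genes, then, only Ddit4l had groups that did not overlap.

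Tsc1 encodes hamartin and Tsc2 tuberin, the GTPase-activating subunit that turns Rheb off. The bright Tsc1 probe set, 1455252_at, read 8.84, 8.72, 8.83 and 8.52 in wild-type mice and 8.49, 8.37, 8.43 and 8.54 in R6/2 mice, a difference of -0.27 ± 0.088. Wild-type mouse 63 fell between the R6/2 mice here too, so the groups overlapped; without it the difference was -0.34 and the probe set was called. The dimmer Tsc1 probe sets differed by 0.062 ± 0.090 (1422043_at) and -0.21 ± 0.16 (1439989_at), the latter -0.50 ± 0.19 with the cortical covariate and called in neither fit. Tsc2, on 1452105_a_at, read 7.92, 8.18, 8.08 and 7.87 against 8.07, 7.97, 7.96 and 8.16, a difference of 0.025 ± 0.090 with full overlap. Rheb itself, on 1416636_at, read 11.09, 10.86, 10.72 and 11.09 in wild-type mice and 11.18, 11.02, 11.22 and 11.17 in R6/2 mice. Its difference of 0.21 ± 0.098 was not called, and R6/2 mouse 65 lay within the wild-type range. With the cortical score as a covariate it was 0.39 ± 0.11, also not called.

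Mtor, the kinase shared by both complexes, read 9.18, 9.01, 9.10 and 9.02 in wild-type and 9.01, 8.72, 8.98 and 9.00 in R6/2 mice on its brightest probe set, 1417592_at, a difference of -0.15 ± 0.087. R6/2 mouse 65 stood below the other R6/2 mice, which lay between 8.98 and 9.01, and without it the difference was -0.081. With the cortical covariate it was -0.061. The other Mtor probe sets differed by 0.16 ± 0.11 (1436267_a_at) and -0.12 ± 0.12 (1446185_at). Rptor, the scaffold that brings substrates to mTORC1, read between 7.92 and 7.99 in wild-type mice and between 7.83 and 8.20 in R6/2 mice on 1434619_at, a difference of 0.036 ± 0.085, or 0.17 ± 0.10 with the cortical covariate, not called in either fit. Its 2 other probe sets were dim, at means of 3.77 and 3.92, and differed by 0.13 ± 0.075 and -0.092 ± 0.089. No probe set of the kinase or of raptor had groups that did not overlap.

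Rictor, the defining subunit of mTORC2, was the exception among the core genes, and its 5 probe sets did not move as one. On the brightest, 1435698_at, wild-type mice read 7.36, 7.31, 7.40 and 7.35 and R6/2 mice 7.60, 7.92, 7.86 and 7.66. Every R6/2 mouse lay above every wild-type mouse, with a difference of 0.40 ± 0.085. The call was lost without R6/2 mouse 70, where the difference was 0.37 ± 0.093, and with the cortical marker score described further on as a covariate, where it was 0.30 ± 0.11. A second bright probe set, 1441753_at, had the opposite sign at -0.25 ± 0.10, with wild-type mice at 6.60, 6.38, 6.33 and 6.18 and R6/2 mice at 6.13, 5.95, 6.27 and 6.14; these groups overlapped. Another, 1429810_at, differed by 0.083 ± 0.13 (0.30 ± 0.15 with the cortical covariate, not called), and the dim 1453775_at by 0.23 ± 0.12. The fifth, 1427583_at, lay below the highest Y-linked value on all 8 arrays and holds no measured difference. Which Rictor transcripts these probe sets report was not examined, since probe positions were not used here.

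Eif4ebp1 encodes 4E-BP1, the translational repressor that mTORC1 phosphorylates to free the cap-binding protein eIF4E. Its 3 probe sets were dim, at means of 4.91, 5.11 and 4.22 where the median probe set of the array lies at 5.11, and RMA compresses differences at such levels. On 1417562_at wild-type mice read 4.83, 4.99, 5.12 and 5.13 and R6/2 mice 4.77, 4.78, 4.74 and 4.95, a difference of -0.21 ± 0.088. Only R6/2 mouse 78 reached the wild-type range. The other probe sets differed by -0.029 ± 0.079 (1417563_at) and -0.047 ± 0.071 (1434976_x_at).

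**Figure D2:**
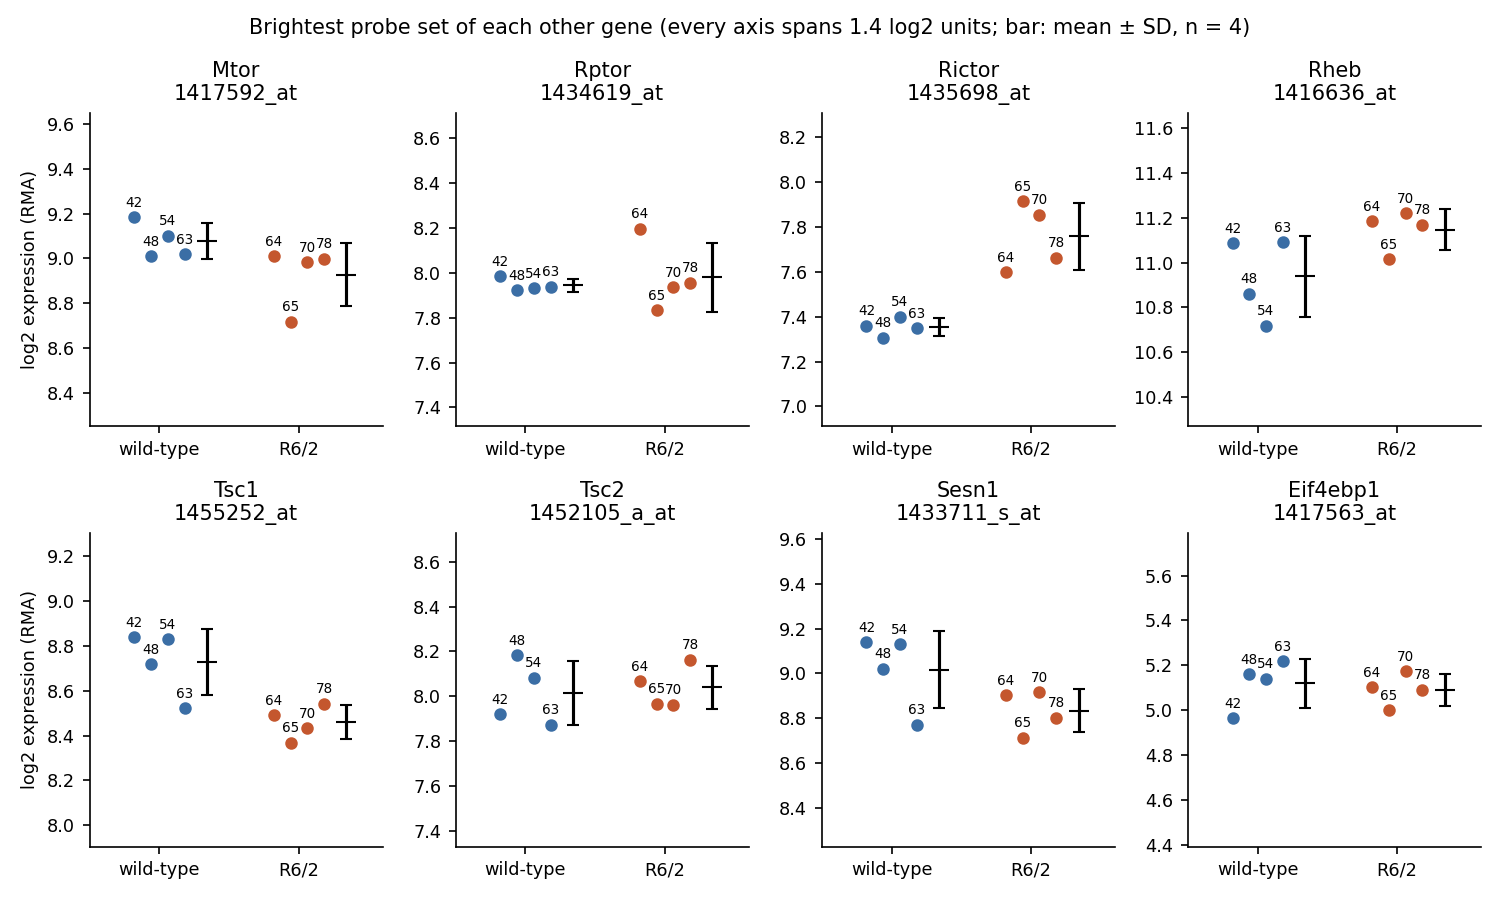
Log2 expression of the brightest probe set of the 8 other genes in each mouse, with mouse numbers and the mean ± SD of 4 mice; each axis spans the same number of log2 units. The R6/2 mice lie above all wild-type mice for Rictor, while the groups overlap in the other 7 panels.

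Of the 27 probe sets, 4 were called (limma, adjusted p under 0.05), 3 of them lower and 1 higher. Over all probe sets 10.1% were called, 4.59% lower and 5.54% higher, and because this contrast chose the genes nothing is read from their own count. The groups did not overlap on the same 4 probe sets, against 16.1% of all probe sets. The median difference was -0.092 over the 27 probe sets and -0.038 over the 24 that do not report Ddit4l, beside -0.017 over the whole array. The median size of the difference, regardless of sign, was 0.14 over those 24 and 0.12 over the array. The 24 ran from -0.27 to 0.40, so that each lay more than 1 log2 unit short of the smallest Ddit4l difference.

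**Figure D3:**
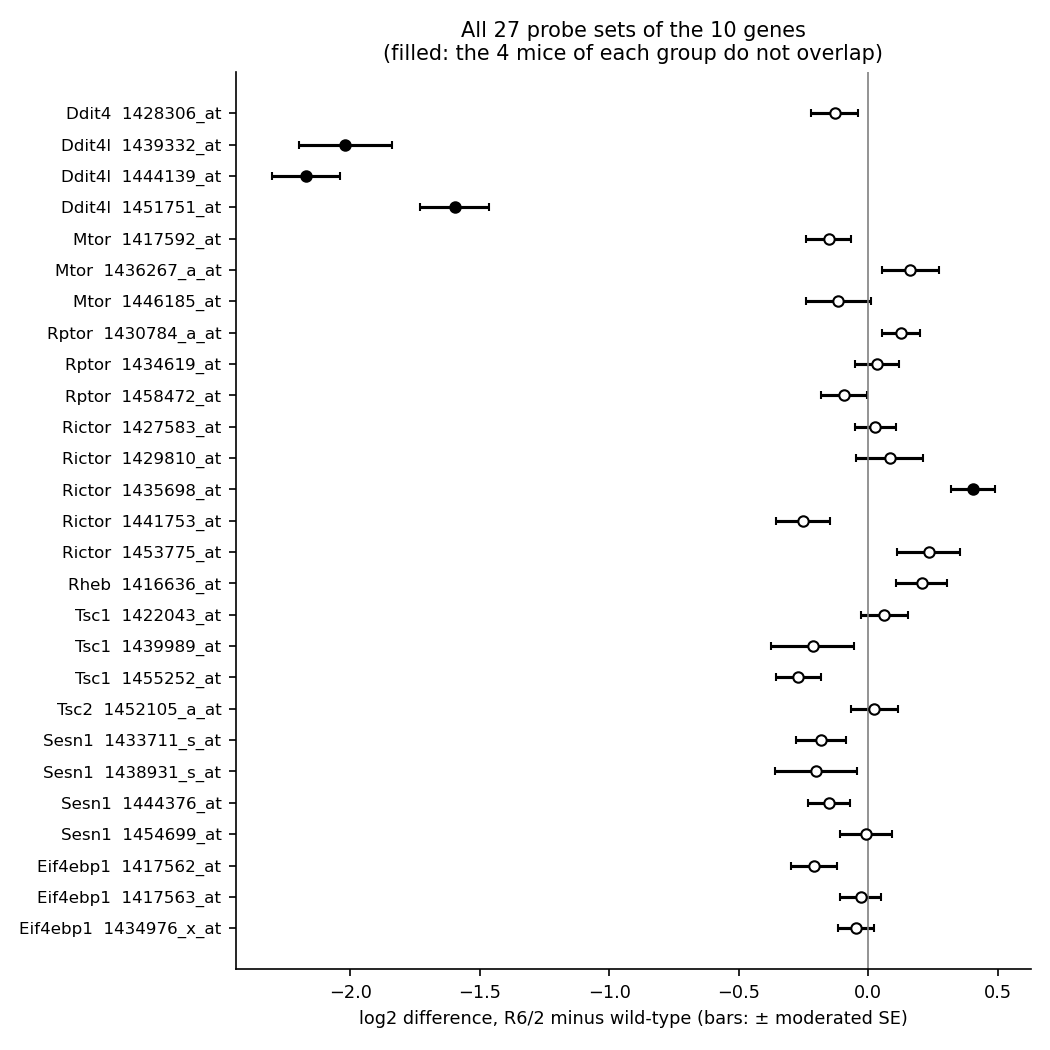
Log2 difference, R6/2 minus wild-type, of all 27 probe sets with the moderated standard error from limma; filled points have groups that do not overlap. The Ddit4l probe sets lie at -2.17, -2.02 and -1.60, and the other 24 between -0.27 and 0.40.

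The rest of the pathway was examined through 84 further genes in 6 lists, 77 of which had a named probe set, with 195 probe sets in all; the other 7 were not analysed here. By limma, 13 probe sets were lower and 11 higher in R6/2 mice, and 171 were not called. That made 12.3% called, beside 10.1% over the array, with a median difference of 0.037. With the brightest probe set of each gene, 5 of 77 genes were lower and 8 higher, beside 6.19% and 9.09% of all genes. In these lists, which were written with earlier results of these data known, the share of calls was thus close to that of the whole array. The shares over all probe sets to set beside each list below are 4.59% lower and 5.54% higher. Counts of higher probe sets fell to 7, 6 and 7 without wild-type mouse 48, R6/2 mouse 64 and R6/2 mouse 78, and to 2 with the cortical covariate, which left 5 lower. Calls over the whole array also fell with the covariate, from 4566 to 1363.

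The largest pathway difference outside Ddit4l was that of Rasd2. It encodes Rhes, a GTPase enriched in striatal medium spiny neurons that can activate mTORC1 and also binds mutant huntingtin. On 1427343_at it read 11.63, 11.51, 11.09 and 11.15 in wild-type and 10.35, 10.20, 10.04 and 10.47 in R6/2 mice, a fall of 1.08 ± 0.14 (limma adjusted p = 0.00184), and its other probe set fell by 0.95. The remaining genes of the list around the TSC-Rheb switch (Tbc1d7, Rhebl1, Fkbp1a and Fkbp8) had no called probe set. Both calls in the list were lower, among 12 probe sets (at an unadjusted p under 0.05, 2 were lower and 1 higher). Rasd2 also belongs to the medium spiny neuron markers.

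Among 26 probe sets of the other mTOR complex subunits and their assembly factors, 2 were lower and 0 higher by limma (2 and 0 at an unadjusted p under 0.05). Both belong to Deptor, which binds mTOR and inhibits both complexes. Deptor had 4 other probe sets, which differed by -0.20 to 0.10 and were not called. On 1453571_at it averaged 8.34 ± 0.19 in wild-type mice and 7.85 ± 0.16 in R6/2 mice (-0.49 ± 0.11, limma adjusted p = 0.0231, n = 4 each). Leaving out wild-type mouse 48, or any of R6/2 mice 64, 65 and 70, ended the call (adjusted p = 0.0501 to 0.0694). It was also lost with the cortical covariate (-0.33, adjusted p = 0.266). None of the probe sets of Mlst8, Akt1s1 and Mapkap1, the other core subunits, was called. In the list of stress-induced inhibitors and AMPK, 1 of 27 probe sets was called, the dimmest of 3 for Prkab2 (1442001_at, 0.46 ± 0.11, limma adjusted p = 0.0303). It encodes a regulatory subunit of AMPK, the energy sensor. Its 2 other probe sets differed by 0.029 and 0.11, and the call ended when any of mice 42, 48, 63, 64, 65 and 78 was left out (adjusted p = 0.0619 to 0.0857) or the cortical covariate was used (0.33, adjusted p = 0.285). Sesn2 and Sesn3 were not called.

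In the list of growth factor signalling to Akt, 8 of 38 probe sets were lower, 1 was higher and 29 were not called, beside 4.59% lower and 5.54% higher over the array. With the brightest probe set of each gene 2 of 13 genes were lower, with a median over the genes of 0.058. Gsk3b, a kinase that Akt inhibits, was lower on 4 of 6 probe sets, led by 1439949_at at -0.60 ± 0.078 (limma adjusted p = 0.00192), so that it supplied 4 of the 8 calls; its brightest probe set, 1437001_at, differed by -0.38 ± 0.12 and was not called. Akt2 was lower on 2 of 3, with -0.58 ± 0.076 on 1424480_s_at (limma adjusted p = 0.00211), where R6/2 mice lay between 7.66 and 7.84 and wild-type mice between 8.21 and 8.43. Pdpk1, the kinase PDK1 that activates Akt, was lower on both, with -0.51 ± 0.085 on 1416501_at (limma adjusted p = 0.00573). The catalytic PI3K subunit gene Pik3ca rose on 1 of 6 probe sets (1423144_at, 0.47 ± 0.083, limma adjusted p = 0.00761). The receptor genes Igf1r and Insr, and Akt1, were not called. With the cortical covariate, Akt2 1424480_s_at and Gsk3b 1439949_at were still called, and Pdpk1 (-0.44, adjusted p = 0.0813) and Pik3ca (0.48, adjusted p = 0.0650) were not.

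Among 56 probe sets for amino acid sensing at the lysosome, 7 were higher, 1 was lower and 48 were not called, beside 5.54% higher and 4.59% lower over the array. The difference between this list and the growth factor list was not tested. Over all 6 lists 2 higher calls were made with the cortical covariate, where calls over the whole array also fell, from 4566 to 1363. Castor2, a relative of the arginine sensor CASTOR1, rose on 2 of 4 probe sets, from 8.52 ± 0.18 to 9.03 ± 0.082 on 1451589_at (0.51 ± 0.097, limma adjusted p = 0.0102, n = 4 each). Flcn, the folliculin that acts on Rag GTPases, rose on 2 of 3, with 0.52 ± 0.11 on 1438167_x_at (limma adjusted p = 0.0149). Lamtor2, a subunit of the Ragulator complex that holds Rag GTPases at the lysosome, rose on its dimmer probe set 1435729_at (0.32 ± 0.073, limma adjusted p = 0.0218). Its brighter one differed by 0.017, and the call ended when any of mice 48, 64, 70 and 78 was left out (adjusted p = 0.0542 to 0.0638). Rragd, a Rag GTPase, held the 1 lower call, while its 2 other probe sets differed by -0.34 and 0.037 and were not called. On 1434909_at it read 10.76, 10.73, 10.81 and 10.43 in wild-type and 10.16, 10.19, 10.09 and 10.11 in R6/2 mice (-0.55 ± 0.091, limma adjusted p = 0.00576). Castor2, Flcn and Lamtor2 were not called with the cortical covariate (0.59, 0.54 and 0.39, adjusted p = 0.0533, 0.103 and 0.0735), whereas Rragd was (adjusted p = 0.0417).

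Among 36 probe sets of mTOR targets and effectors, 2 were higher and 0 lower by limma (7 and 2 at an unadjusted p under 0.05). Grb10, an adaptor that mTORC1 stabilises and that restrains insulin signalling, rose from 8.52 ± 0.13 to 9.09 ± 0.046 on 1425458_a_at (0.57 ± 0.080, limma adjusted p = 0.00256, n = 4 each). Its 2 dim probe sets differed by -0.0058 and -0.089. Eif4e, the cap-binding protein that 4E-BP1 holds, rose by 0.42 ± 0.093 on 1450908_at (limma adjusted p = 0.0194). That call ended when any of mice 48, 64, 65 and 70 was left out (adjusted p = 0.0506 to 0.0612) and with the cortical covariate (0.34, adjusted p = 0.192), and its other 3 probe sets differed by -0.16 to 0.089. Eif4ebp2, the main 4E-BP of brain, was not called, nor were Rps6, Ulk1 and Tfeb.

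**Figure D4:**
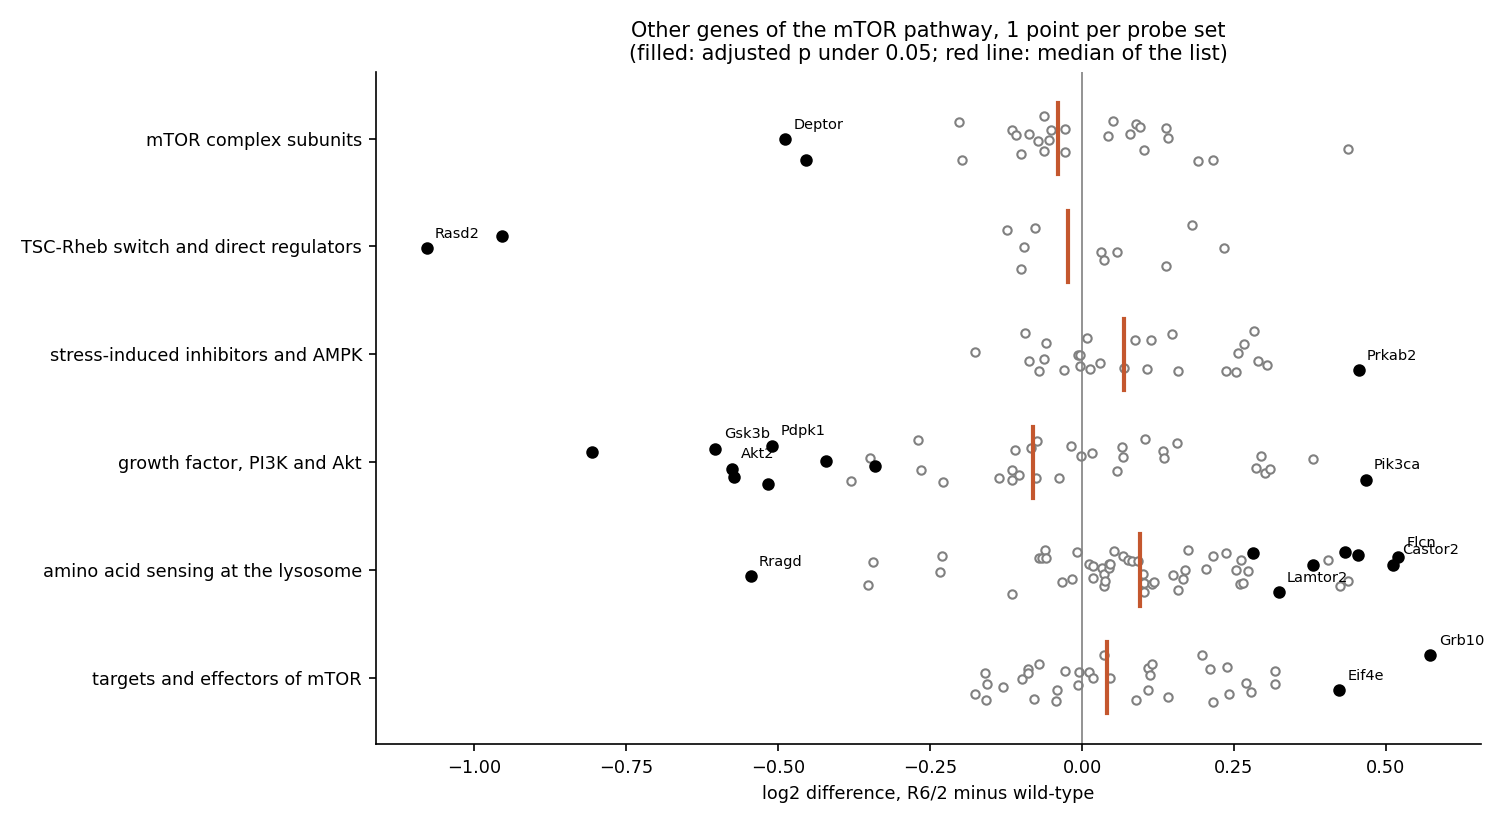
Log2 difference, R6/2 minus wild-type, of each of the 195 probe sets in the 6 lists of further pathway genes, 1 point per probe set; filled points have an adjusted p under 0.05 and red lines mark list medians. Rasd2 lies farthest to the left, at -1.08, and most other probe sets lie within 0.50 of 0.

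Because glucocorticoids, hypoxia and the integrated stress response induce Ddit4, 38 genes that respond to them were listed, with 84 probe sets. Of these, 7 were lower and 4 higher (13.1% called, beside 10.1% over the array). Among 34 probe sets of glucocorticoid-responsive genes 4 fell and 3 rose. Cdkn1a, the cell cycle inhibitor p21, fell by 1.14 ± 0.10 on 1424638_at (limma adjusted p = 0.000369). Mt1, a metallothionein, fell by 0.41 ± 0.081 on 1422557_s_at (limma adjusted p = 0.0118), and Per1, a clock gene, fell by 0.46 ± 0.097 on 1449851_at (limma adjusted p = 0.0157); leaving out R6/2 mouse 70 ended that call (adjusted p = 0.0516). Nfkbia, an inhibitor of NF-kappaB, rose by 0.44 ± 0.092 on 1449731_s_at (limma adjusted p = 0.0152) and on 1 of its 4 other probe sets. The remaining rise was that of Tsc22d3 (GILZ), named after its values were seen, by 0.73 ± 0.15 on 1425281_a_at (limma adjusted p = 0.0163), while its brightest probe set, 1420772_a_at, differed by 0.63 ± 0.18 and was not called (adjusted p = 0.0518). With the cortical covariate Cdkn1a was still called, whereas Mt1, Per1 and Nfkbia were not (adjusted p = 0.129, 0.188 and 0.0789).

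Among 26 hypoxia-responsive probe sets, Pdk1 (pyruvate dehydrogenase kinase) rose by 0.58 ± 0.081 on 1435836_at (limma adjusted p = 0.00266). P4ha1 (collagen prolyl hydroxylase) fell by 0.39 ± 0.10 on 1452094_at (limma adjusted p = 0.0379). The P4ha1 call ended when any of mice 48, 64, 65, 70 and 78 was left out (adjusted p = 0.0652 to 0.0929). It also ended with median centring (-0.38, limma adjusted p = 0.0523). Of 24 probe sets for the integrated stress response, 2 were lower and 0 higher by limma (5 and 4 at an unadjusted p under 0.05). Ddit3, the transcription factor CHOP, fell by 0.64 ± 0.079 on 1443897_at (limma adjusted p = 0.00148), while its brighter probe set, 1417516_at, differed by -0.34 ± 0.11, with overlapping groups, and was not called (adjusted p = 0.0912). The pseudokinase gene Trib3 fell by 0.37 ± 0.094 on 1426065_a_at (limma adjusted p = 0.0336). The Trib3 call ended when any of mice 48, 54, 63, 64, 65 and 70 was left out (adjusted p = 0.0580 to 0.0934). With the cortical covariate Pdk1 and Ddit3 1443897_at were still called, and P4ha1 and Trib3 were not (adjusted p = 0.35 and 0.15).

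Marker genes of striatal cells were set beside Ddit4l. Of 16 measured medium spiny neuron markers, 15 were called lower in R6/2 mice, with a median difference of -0.94. None lay at or below the Y-linked values on all arrays. Their score is the average, over the genes, of a mouse's deviation from the wild-type mean. It spanned -0.24 to 0.11 among wild-type mice, and among R6/2 mice -0.98 to -0.93 (exact permutation test, 2-sided, p = 0.0286, the lowest value possible with 70 arrangements). The marker lists were written with earlier results of these data known, so nothing is read from this p-value or from that of the cortical score below. Each Ddit4l probe set fell further than 15 of these 16 markers, the exception being the sodium channel subunit gene Scn4b at -2.23. Ddit4l had been selected on this same difference, so nothing is read from its place among the markers. Wild-type mouse 63, lowest in Ddit4l on all 3 probe sets, also had the lowest wild-type score, -0.24 against 0.057 to 0.11 in the others. Without it the Ddit4l differences were -2.29, -2.13 and -1.68. The part of the medium spiny neuron transcripts in the Ddit4l fall was not tested.

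The 11 cortical projection neuron markers were scored as a guide to overlying cortex in a dissection, which was not itself measured. Their score spanned -0.60 to 0.34 among wild-type mice and -1.22 to -0.11 among R6/2 mice, so the groups overlapped (exact 2-sided permutation p = 0.0571). In that list 2 of the 11 markers were called lower, beside 4.59% of all probe sets. The median difference over the 11 markers was -0.69. With this score as a covariate the Ddit4l differences were -2.30 ± 0.18, -1.93 ± 0.26 and -1.80 ± 0.17 on 1444139_at, 1439332_at and 1451751_at, all called.

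**Figure D5:**
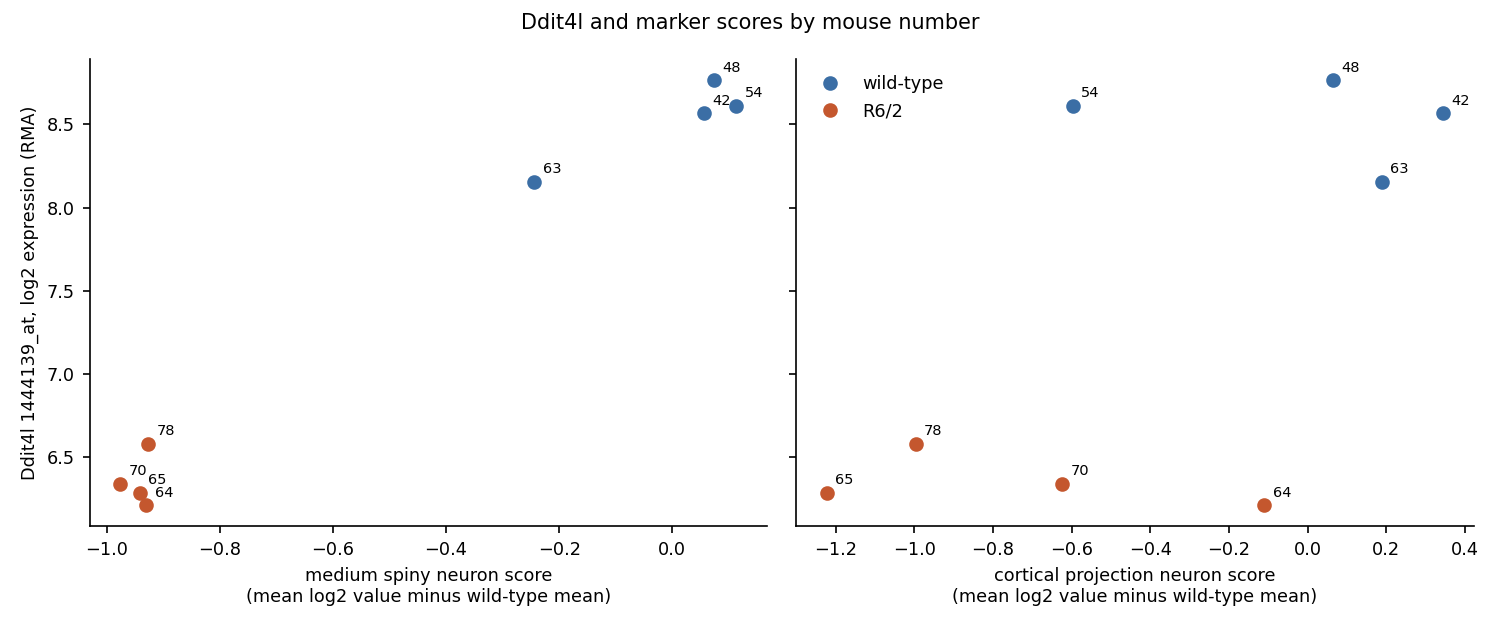
Log2 expression of Ddit4l (1444139_at) in each mouse against the medium spiny neuron score and against the cortical projection neuron score; colours mark the genotype and labels the mouse number. The genotypes separate along the medium spiny neuron score, at -0.24 or above against -0.93 or below, but overlap along the cortical score.

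The scores of 10 endothelial and mural markers also did not overlap, at -0.11 to 0.12 in wild-type and -0.45 to -0.27 in R6/2 mice. Of these markers 5 were called lower, with a median difference of -0.33 over the list. Nor did the scores of 10 astrocyte markers overlap (-0.15 to 0.19 against -0.38 to -0.20), with 3 called lower and a median difference of -0.31. Over all probe sets 4.59% were called lower. Microglial and oligodendrocyte scores overlapped, at -0.17 to 0.14 against -0.29 to 0.037 and at -0.18 to 0.29 against -0.24 to -0.058. Ependymal and choroid plexus scores ranged from -0.51 to 0.70 and from -0.53 to 1.09. The Gapdh 3′ minus 5′ control signal, a measure of RNA integrity, was 0.41 to 1.19 in wild-type and 0.23 to 0.35 in R6/2 mice. These groups did not overlap, and wild-type mouse 42 read 1.19. The same signal for Actb was 1.39 to 2.40 in wild-type and 1.37 to 1.46 in R6/2 mice. Here the groups overlapped, and wild-type mouse 42 was again the highest, at 2.40. Without mouse 42 the Ddit4l differences were -2.16, -1.94 and -1.53. The part of these scores and of RNA integrity in the member differences was otherwise not tested.

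Over the 8 arrays, the genes whose pattern was most like that of Ddit4l 1444139_at were Rgs11 (Pearson r 0.996, Spearman rho 0.976), Mgat4b (0.996 and 0.929), Rgs9 (0.995 and 0.833), Ppargc1b (0.995 and 0.929) and St8sia3 (0.994 and 0.952), among 19327 probe sets brighter than the median. These values are a description of a search for the highest likeness, and they mostly restate the genotype, since each of the 5 genes had a lower mean in R6/2 mice, with differences from -0.65 (Mgat4b) to -1.57 (Rgs11). Rgs11 and Rgs9 encode regulators of G protein signalling and Ppargc1b the coactivator PGC-1β. The patterns most opposed were those of Phf8 (r -0.993), Mtch2 (-0.991), Agfg1 (-0.989), Ints8 (-0.989) and H2ac19 (-0.989), all with higher means in R6/2 mice, by 0.20 (Mtch2) to 0.66 (H2ac19, on a probe set that may also read related histone genes).

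With each group centred on its own mean, only differences between mice of a genotype count. The closest patterns to Ddit4l 1444139_at were then those of Thyn1 (r 0.969), C1qtnf12 (0.959), Ikzf4 (0.955), Ppfia4 (0.954) and Pcdh10 (0.951). The other Ddit4l probe sets reached only 0.60 and 0.65 with this same probe set. Thyn1 itself differed by 0.0026 between genotypes while the mean of Pcdh10 was 0.57 higher in R6/2 mice. For Ddit4 the closest centred patterns were those of Fam98c (r 0.978), Lmo1 (0.969), Rian (0.965), Ppp2r5c (0.962) and Sephs2 (0.962). Both lists hold the highest values of a search over 19327 probe sets on 8 arrays. How high r would reach by chance was not tested.

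The chromosomal neighbours of Ddit4l, taken by position alone and read on the brightest probe set of each, did not share its fall in size. Of the 3 protein-coding genes on either side, 5 had a named probe set. Ppp3ca, a catalytic subunit of the calcium-dependent phosphatase calcineurin, was lower by 0.49 ± 0.082 (limma adjusted p = 0.00543). The other 4 were not called: Emcn (-0.25 ± 0.15), H2az1 (0.041 ± 0.087), Dnajb14 (-0.15 ± 0.11) and Lamtor3, itself a subunit of Ragulator (0.17 ± 0.085). Of the neighbours of Ddit4, 5 likewise had a probe set and none was called, with differences between -0.15 for Spock2 and 0.17 for Anapc16.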

How the data were processed

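Biotin-labelled striatal RNA of 8 mice, 4 of each genotype, was hybridised to 1 array per mouse. The authors deposited 1 log2 value for each probe set and array. The submitters' processing notes name RMA and affy as the tools; versions and the arrays normalized together are not given in the sources used here. RMA subtracts background, normalizes arrays jointly and summarises probes, and it compresses differences of dim probe sets. Array medians lay between 5.08 and 5.13 and correlations between arrays from 0.983 to 0.994, and precision is limited by how few arrays there are.

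Of 45101 rows, 64 controls were left out. Genes were named from the platform annotation (34945 probe sets with 1 symbol, 932 with several, 9160 with no entry), with symbols updated through RefSeq by Entrez ID (34741 matches). RefSeq windows matched 9 of the 10 genes.

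All 45037 probe sets were fitted together with limma 3.58.1 in R 4.3.3 (lmFit, eBayes, 8 arrays), adjusted by Benjamini-Hochberg and called at an adjusted p under 0.05. Errors of differences are moderated standard errors; the script was tested on simulated data. The limma p-values set each difference against the spread between these mice, moderated by the spread over all probe sets. The members and all lists were chosen with earlier results of these data known. Up to 4 called genes with the smallest adjusted p were named per list, and 5 genes per search for likeness; neighbours on the chromosome and the 4 Y-linked genes were added after the data had been seen, and genes named as not called are examples. The alternatives were quantile normalization, median centring, leaving out the dimmest 40% of probe sets, 1 probe set per gene, no _s_at or _x_at probe sets, a trend with robust moderation, no moderation, array weights, a cortical score covariate and leaving out each mouse. Figures used Python 3.11.15 and matplotlib 3.10.9.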

Additional observations from a re-analysis of the deposited data

Results flagged for a closer look

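Among 114 sets of 4 mice examined, 7 held a mouse whose distance from its nearest neighbour, as a share of the range of its group, exceeded Dixon's critical value for 4 samples; chance flags about 1 in 20. R6/2 mouse 65 was low in Mtor 1417592_at, at 8.72 against 8.98 to 9.01 in the other R6/2 mice, and in Gsk3b 1439949_at, at 6.56 against 6.68 to 6.70. Wild-type mouse 48 was high in the dim Rictor probe set 1453775_at, at 4.10 against 3.72 to 3.75. Wild-type mouse 63 was high in Eif4ebp1 1434976_x_at, at 4.35 against 4.21 to 4.22, and low in the medium spiny neuron score, at -0.24 against 0.057 to 0.11. Wild-type mouse 42 stood apart in the Gapdh 3′ minus 5′ control signal, at 1.19 against 0.41 to 0.52. Wild-type mouse 54 was high in Cdkn1a 1424638_at, at 7.76 against 7.45 to 7.48.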

How the results depend on the processing

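No paired analysis was possible because the groups share no mouse numbers. The 3 Ddit4l differences kept their sign under each alternative that could be fitted, from -2.30 to -2.09 (1444139_at), -2.16 to -1.89 (1439332_at) and -1.80 to -1.52 (1451751_at), and each was called in all of them. Without 1 mouse they ran from -2.29 to -2.09, from -2.16 to -1.89 and from -1.70 to -1.52. Member probe sets called numbered 4, 3 to 5 without 1 mouse, and 2 with 1 probe set per gene, where each gene has 1. All probe sets called numbered 4566, against 2650 to 4262 without 1 mouse, 2781 with 1 probe set per gene, 1861 without moderation and 1363 with the cortical covariate. Of the further pathway probe sets, 13 were lower, against 9 to 14 without 1 mouse and 5 both with 1 probe set per gene and with the cortical covariate. There 11 were higher, against 6 to 11 without 1 mouse, 4 without moderation and 2 with the covariate. In the stress lists 7 were lower (4 to 7 without 1 mouse, 4 without R6/2 mouse 70, 4 without moderation, 3 with the covariate) and 4 higher (3 to 5 without 1 mouse, 1 without moderation, 7 with array weights, 1 with the covariate). With the cortical covariate, Rheb differed by 0.39, Rptor 1434619_at by 0.17, Rictor 1429810_at by 0.30 and Tsc1 1439989_at by -0.50, none of them called; the cause was not tested. Of the 21 named pathway and stress probe sets, 8 were called in every alternative that kept them, 13 lost the call with the covariate, 9 without moderation and 7 without 1 mouse. P4ha1 1452094_at also lost it with median centring (limma adjusted p = 0.0523). Rasd2, Akt2, Gsk3b and Ddit3, among the 8, were each left out of 1 of the 17 alternatives, and the brightest probe sets of Gsk3b and Ddit3 were not called (adjusted p = 0.0769 and 0.0912).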
